A study of Mus musculus with 6 samples.

Results

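The genes of Notch signaling followed here were the receptors *Notch1*, *Notch2*, *Notch3* and *Notch4*, the ligands *Jag1*, *Jag2*, *Dll1* and *Dll4*, and the target genes *Hes1* and *Hey1*. They were taken by gene name from a table of RNA counts that lists 43346 genes, each of the 10 names had a single row, and all 10 had enough counts to be tested. In senescent fibroblasts, 7 of the 10 rose and 1 fell at an adjusted p under 0.05 (edgeR), while 2 did not pass. The ligand *Jag1* and the target *Hes1*, both well expressed, were 2.49-fold and 2.27-fold higher, whereas the receptor *Notch1* was 1.93-fold lower and *Notch2*, the most abundant receptor RNA per length, was not called. Of all 17589 genes tested, 70.3% passed the same limit. *Dll4* reached the test through its counts in senescent cells alone and had to differ, and 7 of the other 9 genes passed, a share near this background. Higher levels were called in 36.2% of all tested genes and in 6 of those 9, and lower levels in 34.1% and 1 of 9. Among those 6 is *Jag2*, whose place in the test also rested on its senescent libraries.

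Notch signaling passes between touching cells. A ligand of the Jagged or Delta-like family on the surface of a cell binds a Notch receptor on its neighbour, the receptor is cut by an ADAM protease and then by gamma-secretase, and the freed intracellular part enters the nucleus. There it joins the DNA-binding protein RBPJ and coactivators of the Mastermind family, and genes of the HES and HEY families, which encode transcriptional repressors, are switched on. In connective tissue the pathway is known for a part in fibroblast activation, in the support of vessels by mural cells and in the control of cartilage formation.

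The RNA came from MAFs, which are primary mouse adult fibroblasts that the study took from ears of adult female C57BL6/J mice. The control group (n = 3) was sham irradiated, and the senescent group (n = 3) was X-irradiated with 20 Gy and cultured for another 21 days. Cells of both groups were kept at 3% oxygen, used between passages 3 and 8, exposed to 100 nM dexamethasone for 2 hours to bring their clocks into one phase, and collected 12 hours after that, so that every value describes a single time point in cells that had all met a glucocorticoid. The comparison asks how the RNA of senescent cells differed from that of control cells at this time. The labels do not say whether samples of a group came from separate animals or cultures, so p-values measure the spread between these samples, which may be technical.

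Total counts lay between 50288454 and 82229553 per library. Pairs of libraries within a group differed by more than the sampling noise, and senescent replicate 3 stood apart from the other senescent libraries (24.8 and 33.0 times the squared difference that chance gives, against 2.33 between senescent replicates 1 and 2). Over 13608 genes with a mean of at least 1 CPM (a library's counts brought to a common total, with TMM scaling between libraries), the difference of senescent replicate 3 from the mean of senescent replicates 1 and 2 fell with the GC content of the transcript (Spearman's rho of -0.825 across genes of the same 3 libraries, which are not independent). Of the 10 Notch genes, 9 had a GC content above the median of 49.6% and 8 were lower in senescent replicate 3 than in the mean of the other senescent libraries. The log2 fold change of each Notch gene is therefore given also without that library and with a GC content term for every library, a setting chosen after seeing the data. That term also takes up any difference between the groups that goes with GC content, so it can shift a fold change either way. Over the same genes, the difference of senescent from control cells had a Spearman's rho of -0.210 with GC content.

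**Figure D1:**
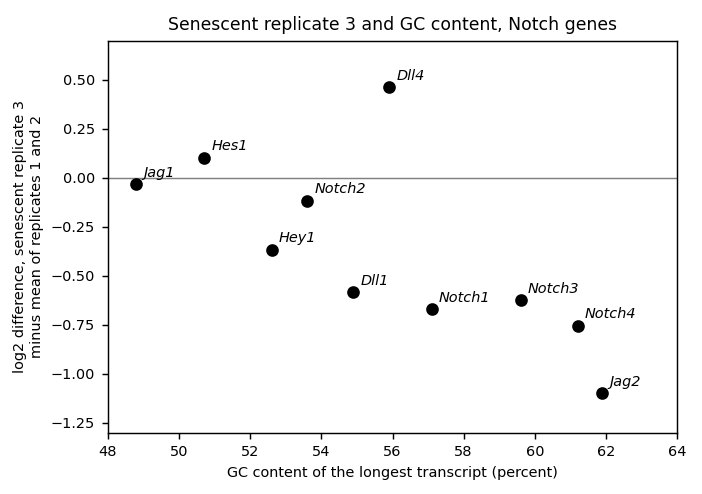
GC content of the longest transcript of each Notch gene (x axis, percent) against the log2 difference between senescent replicate 3 and the mean of senescent replicates 1 and 2 (y axis), with 1 point per gene. *Jag2*, at 61.9% GC, was lowest at -1.10, and *Jag1*, at 48.8% GC, was at -0.03.

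In senescent cells, the proliferation marker *Mki67* was at 9.60 ± 1.49 CPM against 589 ± 17.3 CPM in control cells (SD, n = 3 per group), and *Cdkn1a*, which encodes the cell cycle inhibitor p21, was at 620 ± 16.3 CPM against 123 ± 2.01 CPM. The 10 fibroblast markers summed to between 63764 and 65730 CPM in control and between 47958 and 53450 CPM in senescent libraries, 77.1% of it *Fn1*. Of these markers 3 were higher, among them *Dcn* (11.3-fold), 5 were lower, among them *Col1a1* (5.81-fold), and 2 were not called. The 10 chondrocyte markers, among them *Col2a1*, *Acan* and *Sox9*, summed to between 5382 and 5925 CPM in control and between 368 and 454 CPM in senescent libraries, which is 13.5-fold lower, and 9 of the 9 tested fell. In bulk RNA, fewer cells of a type and less RNA per cell cannot be told apart. The part of this difference in the Notch values was not tested.

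Among the receptors, *Notch1* was lower, *Notch3* and *Notch4* were higher and *Notch2* was not called in senescent cells. *Notch1* (ENSMUSG00000026923) lies on chromosome 2 of mm10 from 26457903 to 26516663, minus strand, and is the receptor best known for growth and fate decisions in skin and blood. It was at 44.1, 52.6 and 49.2 CPM in control replicates 1, 2 and 3, and at 28.5, 29.0 and 18.1 CPM in senescent replicates 1, 2 and 3. Every senescent library was below every control library, and senescent replicate 3 was the lowest of the 6. The log2 fold change was -0.95 (SE 0.17, adjusted p = 0.00158, edgeR). It was -0.75 without senescent replicate 3 and -0.65 with the GC content term, and the call held in both.

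*Notch2* (ENSMUSG00000027878; chromosome 3 from 98013538 to 98150367, plus strand), the main Notch receptor of many mesenchymal cells, was at 171, 180.2 and 178 CPM in the control libraries and at 176, 179 and 164 CPM in the senescent libraries. The groups overlapped, and the log2 fold change of -0.03 (95% interval from -0.17 to 0.10) had an adjusted p of 0.649 (edgeR). Without senescent replicate 3 it was 0.01. With the GC content term the value turned to 0.19 and passed the test (adjusted p = 0.000332, edgeR), so no direction is given for this receptor.

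*Notch3* (ENSMUSG00000038146; chromosome 17 from 32120820 to 32166880, minus strand), the receptor known for its role in vascular smooth muscle and pericytes, was at 4.29, 4.90 and 5.54 CPM in control replicates 1, 2 and 3. In senescent replicates 1, 2 and 3 it was at 10.2, 9.19 and 6.26 CPM. The groups did not overlap, although senescent replicate 3 lay close to the highest control library. Its log2 fold change was 0.79 (SE 0.19, adjusted p = 0.00605, edgeR), and it was 0.98 without senescent replicate 3 and 1.18 with the GC content term.

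*Notch4* (ENSMUSG00000015468; chromosome 17 from 34564268 to 34588503, plus strand), a receptor best known from endothelial cells, was at 1.76, 1.49 and 1.74 CPM in the control libraries and at 2.94, 3.27 and 1.82 CPM in the senescent libraries. Senescent replicate 3 exceeded the highest control library only slightly. The log2 fold change was 0.68 (SE 0.23, adjusted p = 0.0266, edgeR). This call was the least stable of the receptors: it was lost when any library other than senescent replicate 3 was left out, with log2 fold changes between 0.51 and 0.72 and adjusted p between 0.0547 and 0.0906 (edgeR). It held without senescent replicate 3 (log2 fold change of 0.92) and with the GC content term (1.09).

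**Figure D2:**
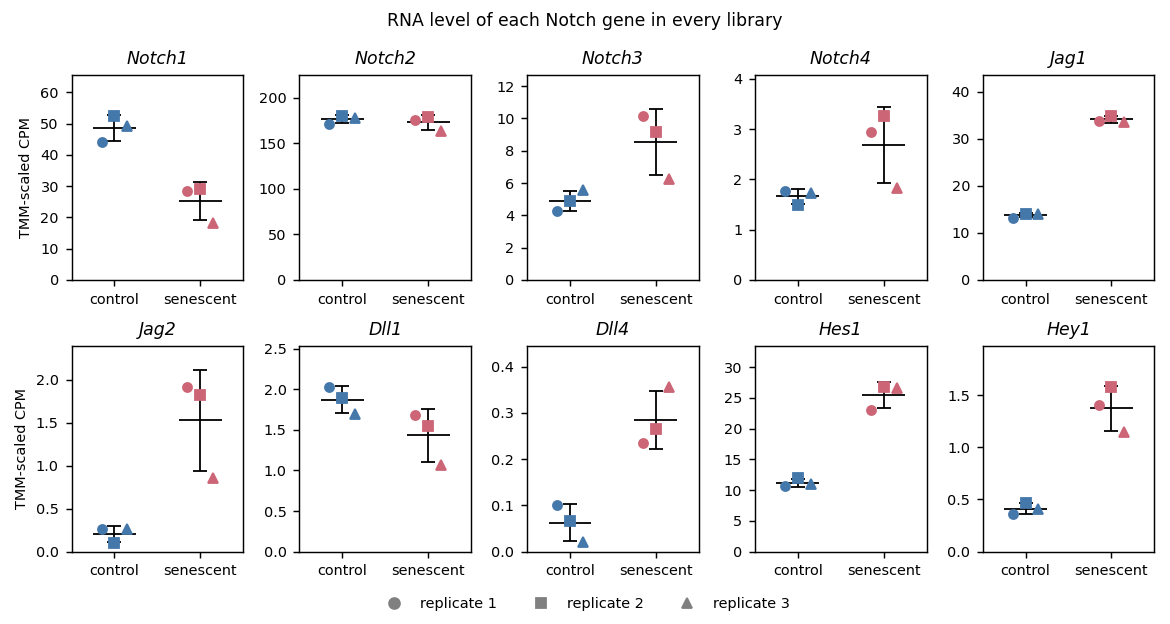
Level of each of the 10 Notch genes in every library (y axis, TMM-scaled CPM, starting at 0) for control and senescent cells, with points shaped by replicate number and bars for mean and SD (n = 3 per group). *Jag1* and *Hes1* are tight and far apart between the groups, and senescent replicate 3 is the lowest senescent library for 8 of the 10 genes, the exceptions being *Dll4* and *Hes1*.

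The sequence before the start of *Notch4* is shown because this was the only Notch gene with a match to a motif searched. Those motifs were the AP-1 site TGACTCA or TGAGTCA, the RBPJ core TGGGAA and the E-box CACGTG read by BMAL1, each on both strands in windows of 300 bases around the RefSeq start sites of GRCm38.p6. Of 9 windows belonging to 8 of the Notch genes, 1 held an AP-1 site and none held the RBPJ core or the E-box. *Hes1* and *Hey1* have no window in this table. Of all 32851 windows, 5.2% held the AP-1 site, 25.6% the RBPJ core and 7.15% the E-box. The *Notch4* match runs across the RefSeq start site at 34564295, from base -4 to base 3 counted from that start, which the gene model of the count table places inside the first exon. The first line below is the plus strand upstream of that gene model (chr17:34564045-34564267), with no match and so no capitals, and the second is the match with the bases around it (chr17:34564281-34564307), the AP-1 site in capitals.
*Notch4* upstream: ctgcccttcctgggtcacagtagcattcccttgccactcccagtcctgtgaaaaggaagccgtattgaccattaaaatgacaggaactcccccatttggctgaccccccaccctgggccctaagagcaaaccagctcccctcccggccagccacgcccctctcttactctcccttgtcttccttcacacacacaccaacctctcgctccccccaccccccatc
*Notch4* start site: ggacattgtgTGACTCAggaaacagct

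Of the 4 ligands, 3 rose, *Jag1* from a substantial level and *Jag2* and *Dll4* from near the detection limit, and *Dll1* was not called. *Jag1* (ENSMUSG00000027276; chromosome 2 from 137081456 to 137116644, minus strand) encodes Jagged 1, a ligand that several kinds of connective tissue cell present. It was at 13.3, 13.9 and 14.0 CPM in the control libraries and at 33.9, 34.9 and 33.6 CPM in the senescent libraries. The libraries of each group lay close together and the groups were far apart. The log2 fold change was 1.31 (SE 0.07, adjusted p = 9.86e-07, edgeR), and it was 1.33 without senescent replicate 3 and 1.36 with the GC content term.

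*Jag2* (ENSMUSG00000002799; chromosome 12 from 112908590 to 112929495, minus strand), the other Jagged ligand, was counted 13, 6 and 13 times in control replicates 1 to 3, against 106, 144 and 72 times in senescent replicates 1 to 3. These correspond to 0.209 ± 0.0940 CPM and 1.53 ± 0.586 CPM (SD, n = 3 per group). The filter on low counts was met by 2 of 3 control libraries and by 3 of 3 senescent libraries, so its place in the test also rested on the senescent libraries. Senescent replicate 3 held the fewest counts of the senescent libraries despite being the deepest, and still exceeded every control library. The ratio of summed counts per depth was 7.28, with a 95% exact interval from 5.06 to 10.8 that covers counting error only. The log2 fold change was 2.88 (SE 0.45, adjusted p = 0.000658, edgeR). It was 3.19 without senescent replicate 3 and 3.29 with the GC content term.

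*Dll4* (ENSMUSG00000027314; chromosome 2 from 119325784 to 119335962, plus strand), a Delta-like ligand known from sprouting vessels, was counted 5, 4 and 1 times in control cells, against 13, 21 and 30 times in senescent cells. It passed the filter on low counts through the senescent libraries alone, so it had to differ and its call is no evidence of its own. The ratio of summed counts per depth was 4.63, with a 95% exact interval from 2.36 to 10.1 for counting error. Its log2 fold change was 2.17, and it was 1.97 without senescent replicate 3 and 2.46 with the GC content term. Even in senescent cells it was at 0.285 ± 0.0629 CPM (SD, n = 3).

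*Dll1* (ENSMUSG00000014773; chromosome 17 from 15367354 to 15376872, minus strand), a Delta-like ligand used widely in development, was at 2.02, 1.89 and 1.70 CPM in the control libraries and at 1.68, 1.55 and 1.07 CPM in the senescent libraries. The values did not overlap, but the gap between the groups was small beside the spread, and the log2 fold change of -0.40 (95% interval from -0.84 to 0.04) did not pass the test (adjusted p = 0.0917, edgeR). It was -0.21 without senescent replicate 3 and -0.16 with the GC content term. Values that do not overlap were seen in 9 of the 10 Notch genes and in 75.3% of all genes tested. The 9 include *Dll4*, whose values could not overlap, since it passed the filter through the senescent libraries alone.

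Both target genes rose. *Hes1* (ENSMUSG00000022528; chromosome 16 from 30064384 to 30067796, plus strand) encodes a repressor that Notch switches on in many tissues and that also answers to other signals. It was counted 535, 716 and 536 times in control replicates 1 to 3, against 1277, 2119 and 2251 times in senescent replicates 1 to 3, or 11.2 ± 0.669 and 25.5 ± 2.12 CPM (SD, n = 3 per group). Senescent replicate 1, the lowest of its group, was well above the highest control library. The log2 fold change was 1.18 (SE 0.09, adjusted p = 1.18e-05, edgeR), and it was 1.16 without senescent replicate 3 and 1.28 with the GC content term.

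*Hey1* (ENSMUSG00000040289; chromosome 3 from 8663359 to 8667256, minus strand), a related repressor prominent in vessels and bone-forming cells, was lower in level. Counts were 18, 28 and 20 for control replicates 1 to 3 and 78, 125 and 97 for senescent replicates 1 to 3, or 0.413 ± 0.0540 CPM and 1.38 ± 0.216 CPM (SD, n = 3 per group). The groups were apart in every library. Between the groups the log2 fold change was 1.72 (SE 0.20, adjusted p = 0.000134, edgeR), and it was 1.85 without senescent replicate 3 and 1.90 with the GC content term. The study's methods give a limit of more than a 2-fold change at p below 0.05 before adjustment. By it, *Jag1*, *Jag2*, *Dll4*, *Hes1* and *Hey1* were called. Leaving out *Dll4*, which had to differ, this is 4 of 9 genes, *Jag2* among them, beside 30.1% of all genes tested. The study's results text names a far stricter p limit for its own gene count, which was not applied here. Unadjusted p was 5.25e-08 for *Jag1*, 1.50e-06 for *Hes1*, 3.38e-05 for *Hey1*, 0.000245 for *Jag2* and 0.00147 for *Dll4* (edgeR).

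**Figure D3:**
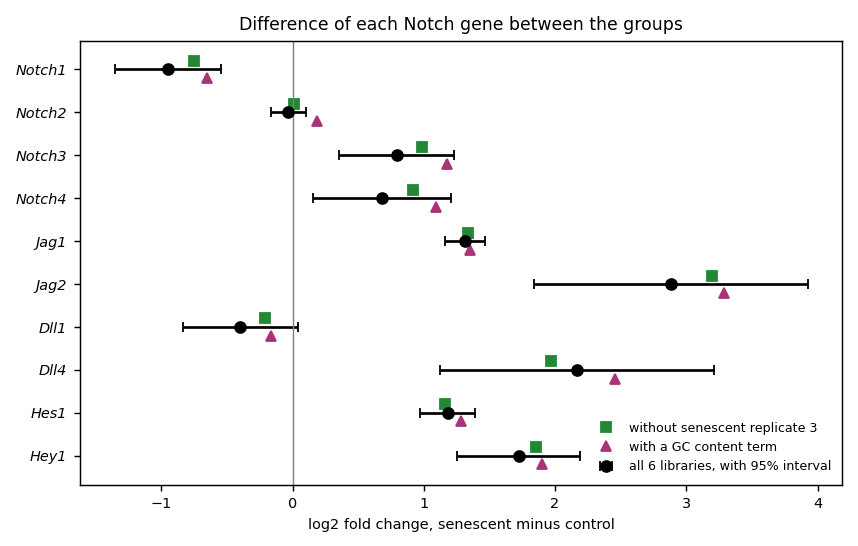
Log2 fold change of each Notch gene between senescent and control cells (x axis), with all 6 libraries and a 95% interval in black, without senescent replicate 3 in green, and with a GC content term in purple. The values of *Jag1* and *Hes1* barely move between the settings, whereas *Notch2* crosses 0, from -0.03 to 0.19 with the GC content term.

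Levels of different genes were compared per kilobase of exon, with the exon length that the count table gives. In control cells, *Notch2* led with 16.8 ± 0.447 CPM per kb, followed by *Hes1* with 5.51 ± 0.328, *Notch1* with 3.42 ± 0.299 and *Jag1* with 2.35 ± 0.0698 CPM per kb (SD, n = 3). *Notch3*, *Dll1*, *Notch4*, *Hey1*, *Jag2* and *Dll4* followed, from 0.610 down to 0.0162 CPM per kb, and of all neighbours in this order only *Jag2* and *Dll4* had overlapping ranges. In senescent cells, *Notch2* (16.4 ± 0.774) and *Hes1* (12.5 ± 1.04) still led, but *Jag1* (5.86 ± 0.118) stood above *Notch1* (1.77 ± 0.433 CPM per kb), the reverse of their order in control cells. *Notch3* came next at 1.06 ± 0.253 CPM per kb. *Hey1*, *Jag2*, *Dll1* and *Notch4*, between 0.422 and 0.332 CPM per kb, overlapped their neighbours and cannot be ordered, and *Dll4* was again lowest at 0.0740 CPM per kb.

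Summed over the 4 receptors, RNA per length was 20.2, 21.6 and 21.3 CPM per kb in control replicates 1 to 3 and 20.3, 20.6 and 17.8 CPM per kb in senescent replicates 1 to 3, and the groups overlapped. Its make-up differed. *Notch1* held 15.4%, 17.1% and 16.2% of the receptor sum in control replicates 1, 2 and 3 and 9.85%, 9.87% and 7.12% in senescent replicates 1, 2 and 3. *Notch3* held between 2.65% and 3.23% in control and between 4.36% and 6.22% in senescent libraries, and *Notch2* made up between 79.3% and 87.3% in every library. Ligand RNA, summed over *Jag1*, *Jag2*, *Dll1* and *Dll4*, rose in every senescent library, from 2.87 ± 0.0182 to 6.65 ± 0.287 CPM per kb, which is 2.32-fold. *Jag1* held between 80.0% and 83.6% of it in control and between 86.2% and 91.2% in senescent libraries, and *Jag2* held 5.61% ± 2.00 in senescent cells, or 3.35% with the longer exon model of GENCODE M21 (6965 against 4054 bases). The share of *Dll1* went from 15.5% ± 1.45 to 5.08% ± 0.980 (SD, n = 3 per group). These shares are descriptions of the same values and were not tested, and an exact permutation test of 3 samples against 3 could not give a p below 0.1.

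**Figure D4:**
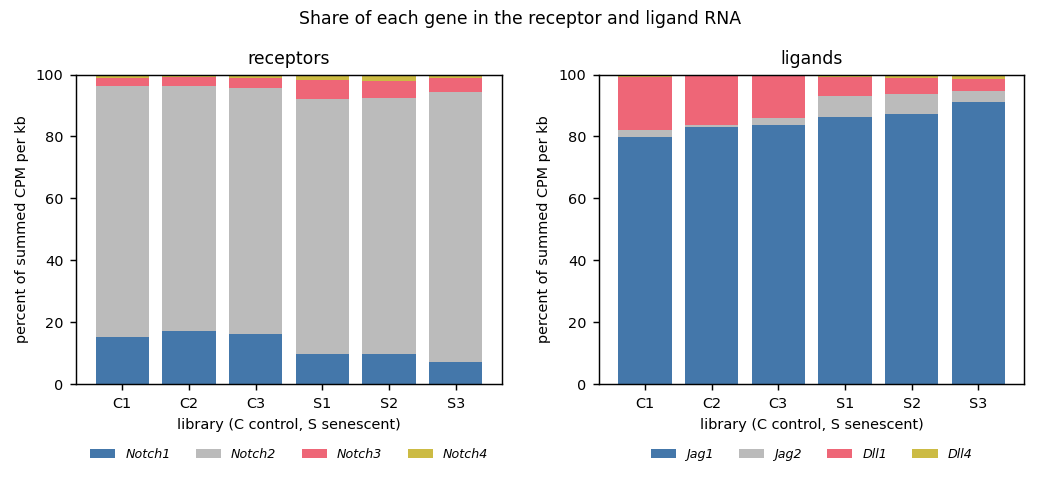
Share of each receptor gene (left) and each ligand gene (right) in the summed RNA of its class in every library (y axis, percent of summed CPM per kb; C1 to C3 control, S1 to S3 senescent). *Notch2* and *Jag1* fill most of every bar, and the *Notch1* and *Dll1* segments are smaller in the 3 senescent libraries.

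The rest of the pathway was read from 52 further genes listed by role. Of these, 44 were tested, 10 were higher, 22 were lower and 12 were not called at an adjusted p under 0.05 (edgeR), and the median log2 fold change was -0.23 beside 0.01 over all genes tested. With the GC content term the split was 15 higher to 17 lower and the median -0.02, so the excess of lower genes was smaller in that setting. Without senescent replicate 3 there were 11 higher and 23 lower. Leaving out any other library gave between 16 and 18 lower. The other scalings, filters and tests and the replicate term gave 18 or 19 lower. Of all genes tested, 36.2% were higher and 34.1% lower, which is the background for the counts of each role list below.

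Glycosyltransferases set the sugars of the receptor that tune its choice of ligand. Of 4 tested, 3 were lower and 1 was not called. *Lfng*, which encodes the Lunatic Fringe enzyme, fell from 3.79 ± 0.393 to 1.44 ± 0.195 CPM (SD, n = 3 per group). The call at a log2 fold change of -1.39 (adjusted p = 5.87e-05, edgeR) held with the GC content term (adjusted p = 2.78e-05, edgeR). *Rfng* and *Pofut1* had log2 fold changes of -0.51 and -0.14, and both calls were lost with the GC content term (adjusted p = 0.0502 and 0.827, edgeR).

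Proteases cut the receptor during its maturation and activation, and 6 of 10 were lower with none higher, or 6 lower and 3 higher with the GC content term. *Adam17*, which encodes an ADAM protease that sheds many surface proteins besides Notch, fell from 134 ± 1.34 to 69.6 ± 3.16 CPM (log2 fold change of -0.95, adjusted p = 2.88e-06, edgeR). *Aph1b* and *Aph1c*, which encode similar subunits of gamma-secretase, had log2 fold changes of -0.76 and -1.19, and their near-identical sequences could have split reads between them.

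The list of ubiquitin and endocytic regulators, which holds E3 ligases that act on ligands or receptors, went in both directions, with 5 of 13 higher and 5 lower. Of the 5 higher, *Dtx1* reached the test through the senescent libraries alone. *Neurl1b*, a ligase of the Neuralized family that acts on ligands, had the largest fall of this list, from 6.52 ± 0.351 to 0.335 ± 0.0873 CPM, a log2 fold change of -4.31 (adjusted p = 2.67e-07, edgeR). *Dtx4*, a Deltex ligase, rose from 3.21 ± 0.128 to 10.0 ± 0.165 CPM (SD, n = 3 per group), and *Fbxw7*, whose product marks the active receptor for degradation, had a log2 fold change of 0.68.

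In the nuclear complex, 4 of 13 genes were higher and 7 lower, or 6 and 5 with the GC content term. *Rbpj*, the DNA-binding partner of the cut receptor, rose from 114 ± 1.83 to 196 ± 19.6 CPM (log2 fold change of 0.78, adjusted p = 5.12e-05, edgeR). It was 0.71 without senescent replicate 3 and 0.69 with the GC content term. *Maml3*, a Mastermind coactivator, had a log2 fold change of -1.52, and the corepressor genes of the Groucho family went both ways, with log2 fold changes of 1.21 for *Tle1*, -2.55 for *Tle2*, -1.01 for *Tle3* and 2.23 for *Tle4*. The non-canonical ligand *Dlk1* fell by 1.22 on the log2 scale, and *Dlk2* was not called, with a value of -0.08 that was 0.32 with the GC content term. The calls of *Lfng*, *Adam17*, *Aph1b*, *Aph1c*, *Neurl1b*, *Dtx4*, *Fbxw7*, *Maml3*, *Tle1*, *Tle2*, *Tle3*, *Tle4* and *Dlk1* held in the same direction without senescent replicate 3 and with the GC content term.

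Most other HES and HEY genes were near the detection limit. *Hey2* was counted 3, 2 and 5 times in control replicates 1 to 3, against 44, 53 and 56 times in senescent replicates 1 to 3, and like *Dll4* it reached the test through the senescent libraries alone, so its call is no evidence of its own. *Hes6* was not called, with a log2 fold change of -0.27. Below the filter for the test, *Hes2* had 0 counts in every control library and 10, 16 and 14 in the senescent libraries, at least 3.19-fold higher than the 3 counts per library that a count of 0 allows. *Nrarp*, a feedback inhibitor that Notch itself switches on, had 0, 1 and 4 counts in control and 7, 24 and 16 in senescent libraries and was not tested. *Hes3*, *Hes5*, *Hes7*, *Heyl* and the ligand *Dll3* had at most 10 counts in any library.

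**Figure D5:**
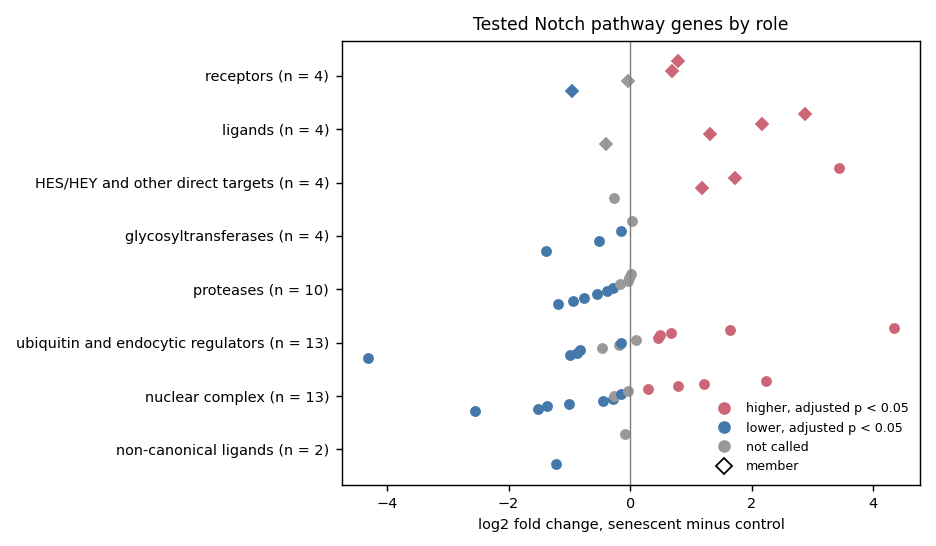
Log2 fold change between senescent and control cells (x axis) of every tested Notch pathway gene, grouped by role, with diamonds for the 10 genes followed in detail and colour for the call at an adjusted p under 0.05 (edgeR). Called ligands and targets lie to the right of 0. Of them, *Dll4* and *Hey2* reached the test through the senescent libraries alone and could not lie to the left. The place of *Jag2* in the test also rested on those libraries. Called proteases and glycosyltransferases lie to the left. With the GC content term 1 of 4 glycosyltransferases was lower, and of 10 proteases 6 were lower and 3 higher.

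Markers of other cell types were read as well, and the sums of the pericyte and smooth muscle list and the keratinocyte list overlapped between the groups. Over all genes tested, 36.2% were higher and 34.1% lower. Of 10 endothelial markers, 7 were tested, 6 were higher (*Vwf* among them reached the test through the senescent libraries alone) and 1 lower, and the list summed to between 5.05 and 6.54 CPM in control and between 11.8 and 12.1 CPM in senescent libraries. Among its defining genes, *Cdh5* was at 0.104 ± 0.0696 and 0.494 ± 0.0440 CPM (SD, n = 3 per group), *Cldn5* had 0 counts in every control library and 6, 10 and 12 in the senescent libraries, and *Tie1* had at most 2 counts in any library. Of 9 markers of pericytes and smooth muscle, which use *Notch3*, 6 were higher, of which *Abcc9* and *Kcnj8* reached the test through the senescent libraries alone, and 1 was lower, and the sum, 75.9% of it *Acta2*, lay between 1536 and 1653 CPM in control and between 1268 and 1607 CPM in senescent libraries. Keratinocyte markers (10 listed, 6 tested, 3 higher, of which *Krt15* and *Dsc3* reached the test through the senescent libraries alone, and 1 lower) summed to between 16.5 and 17.1 CPM in control and between 16.0 and 17.1 CPM in senescent libraries. Macrophage markers (8 listed, 4 tested, 4 higher) summed to between 5.71 and 6.48 and between 13.8 and 15.9 CPM, and Schwann cell and melanocyte markers (10 listed, 6 tested, 1 higher, 4 lower) to between 77.1 and 82.3 and between 57.1 and 61.1 CPM. The part of any of these in the Notch values was not tested.

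Reads from overlapping genes could touch some values. *Notch1* shares 1068 exon bases with the opposite-strand gene *0610009E02Rik*, which had between 65 and 122 counts per library, and *Notch3* shares 488 with *Gm17276*, which had between 12 and 30. *Notch1* also shares 414 with *Gm13568* (between 8 and 18 counts). Of the genes with few counts, *Dll1* shares 867 with *A930024N18Rik* (between 3 and 15 counts) and *Dll4* shares 214 with *Gm14207* (between 0 and 5). All of these lie on the opposite strand. *Notch2* shares 541 with *Gm42820* on the same strand, which has no row in the count table. The strand setting of the counting is not given in the sources used here. Compared over the 6 libraries, each gene centred on its own mean of log2 CPM, the genes most like *Jag2*, the Notch gene with the largest increase, were *Tmem37*, *Npas4* and *Pde2a*, with root mean square differences between 0.323 and 0.331 on the log2 scale. Those most like *Notch1*, which fell, were *Cxxc1*, *Pcyt2* and *Tkt*, with differences between 0.0229 and 0.0327. This likeness, with 13707 genes compared, rests on the difference between the groups and on the spread within them. That spread includes the low senescent replicate 3, at -0.67 for *Notch1* and -1.10 for *Jag2* on the log2 scale from the mean of senescent replicates 1 and 2.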

How the data were processed

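Polyadenylated RNA of 3 control and 3 senescent MAF samples was sequenced by the authors. Reads were aligned to mm10 by STAR as part of MAPRSeq, Subread assigned them to genes, and the authors deposited raw counts without normalization, with the exon length of each gene. Groups and replicate numbers came from the labels. The deposited counts were filtered with filterByExpr (17589 of 43346 genes kept), scaled by TMM and compared with edgeR's robust quasi-likelihood test (edgeR 4.0.16, R 4.3.3), with group as the only term, two-sided, and Benjamini-Hochberg adjustment over all genes tested. The standard error of a log2 fold change is its size divided by the square root of the test's F value. Levels are TMM-scaled CPM, and a count of 0 allows 3 counts. Intervals of a log2 fold change come from the edgeR fit and rest on the spread between samples. Exact intervals of count ratios, and the floor of 3 counts, cover counting error alone, since reads carried no molecular identifiers. The methods were tested on simulated data.

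The Notch genes and all lists were chosen with earlier results of these data known. The rule for named genes took all 10 Notch genes and, from each other role list, the 3 genes with the smallest p. *Rbpj*, *Tle2*, *Tle3*, *Dtx1*, *Dcn*, *Col1a1*, *Vwf*, *Abcc9*, *Kcnj8*, *Krt15*, *Dsc3*, the genes below the filter, *Mki67*, *Cdkn1a*, *Cdh5*, *Cldn5* and *Tie1* were named after their values had been seen. *Cnmd* and *Adgre1* were matched by identifier, since the table holds older names. Alternatives were RLE scaling, library size alone, 2 other filters, edgeR's exact test, DESeq2 1.42.0, the replicate number as a term, the limit in the study's methods and each library left out. The GC content term was added after seeing the data: a smooth trend of each library on the GC content of the longest GENCODE M21 transcript (99.1% of tested genes had a value) entered the fit as an offset. The offset was taken as known, so p-values with this term leave out its own error. Shares of a class are given per length. Promoter windows came from RefSeq on GRCm38.p6, the assembly that mm10 names, and strands and overlaps from GENCODE M21.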

Additional observations from a re-analysis of the deposited data

How the results depend on the processing

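The count of called Notch genes, 8 of 10, stayed between 6 and 9 under the other scalings, filters and tests, the replicate term, the GC content term and each left-out library. With the limit of a 2-fold change at p below 0.05 before adjustment it was 5, and the count over all genes went from 12365 to 5300. Both the 8 and the 5 include *Dll4*, which had to differ, so its calls are no evidence of stability. Its 13 recomputed log2 fold changes are among those counted next. Of 138 log2 fold changes recomputed for single Notch genes, 132 kept their side of the threshold, 3 of them values of *Notch2* that changed sign without a call (0.05 by library size alone, 0.02 with at least 10 counts in every library and 0.01 without senescent replicate 3). Another 5, all of *Notch4*, lost the call when a library was left out, and *Notch2* changed sign and passed the test with the GC content term (0.19). With at least 10 counts in every library, *Jag2* and *Dll4* were not tested, which leaves 6 called of 8. Leaving out single libraries gave between 7 and 8 called Notch genes, between 27 and 34 other pathway genes (32 with all libraries) and between 11214 and 13695 of all genes. A replicate block, with the replicate number as a term, gave 8 Notch genes, 29 other pathway genes and 11624 of all genes. Whether the numbers pair the samples cannot be decided here, since each group has 3 samples and senescent replicate 3 stands apart by its GC trend. The deviations of same-numbered samples from their group means had correlations of -0.145, 0.135 and -0.120 over genes. Control replicates 1 and 3 correlated best with another number. Depth limits *Dll4* and *Jag2* most.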
